A study of Mus musculus with 6 samples.

Results

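Sonic hedgehog is a secreted protein that the floor plate, the strip of cells at the ventral midline of the spinal cord, releases to pattern the progenitors around it. The ligand binds Ptch1, which relieves the block on the transducer Smo, and the signal ends at the transcription factors Gli1, Gli2 and Gli3. Ptch1, Hhip and Gli1 are themselves raised by the signal, so their mRNA levels are commonly used as a readout of it, whereas the repressor form of Gli3 keeps targets off where ligand is scarce. The 9 genes described here are the ligand Shh, the floor plate genes Foxa2 and Spon1, the receptors and ligand-binding proteins Ptch1, Smo and Hhip, and the effectors Gli1, Gli2 and Gli3. They were taken by symbol from a count table of 55433 genes. All 9 passed the filter on low counts, which left 17711 genes to test.

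RNA was sequenced from whole spinal cords of C57BL/6J mouse embryos at E13.5. The 3 libraries labelled NFIAcKO came from embryos that were NFIA-ff and carried Nestin-cre, which makes cre recombinase in neural progenitors, so that recombined alleles pass to the cells they form. The 3 libraries labelled control came from NFIA-ff embryos without cre, so both groups carried the NFIA-ff alleles and only one carried cre. The study asks what the transcription factor NFIA does in motor neuron development. Because cre was present in one group only, an effect of cre and an effect of the deletion cannot be told apart. The labels name neither litters nor pools, and p-values set the difference between groups against the variation among these 6 libraries only.

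Assigned counts were 43393053 to 51465763 per library. Levels are given as CPM, the count scaled to library size. For counting error alone, a count of 0 leaves room for 3, or 0.0583 to 0.0691 CPM before TMM scaling. Nfia itself stood at 106, 108 and 119 CPM in the libraries labelled NFIAcKO, against 60.1, 59.1 and 79.2 CPM in those labelled control. Its count was thus higher, not lower, in all 3 libraries labelled NFIAcKO (log2 fold change 0.75, SE 0.11, edgeR adjusted p = 0.0031). A count over all exons does not test a deletion, so the labels could not be checked by it. Groups are therefore named by their labels throughout. Control replicate 3 lay apart from the other 2 controls for most of the genes described here and is given beside the results it touches. The position markers of the cord, 6 Hox genes, summed to 808 to 965 CPM in the libraries labelled NFIAcKO and 688 to 787 CPM in those labelled control. Of 6 brain markers, 5 averaged under 1 CPM.

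Ptch1 was the one gene of the 9 that passed the test. It was 1.27-fold higher in the libraries labelled NFIAcKO (log2 fold change 0.34, SE 0.08, 95% interval 0.17 to 0.51, edgeR quasi-likelihood test, Benjamini-Hochberg adjusted p = 0.0144 over all genes tested). A change is called here at an adjusted p under 0.05, and genes said to have risen or fallen are called ones. Shh, Hhip, Gli2 and Gli3 had larger estimates (0.36, 0.39, 0.41 and 0.44) that were not called. Of all tested genes 13.9% were called, 7.86% higher and 6.08% lower, and the count of 1 in 9 is to be read against that share. The estimates of the 9 genes nevertheless lay mostly on one side: 8 of 9 were above 0, with a median log2 fold change of 0.34, where 48.9% of all tested genes were above 0 and their median was -0.008. Smo, the transducer, was the one estimate below 0. At an unadjusted p under 0.05, 5 of the 9 were higher and 0 lower, beside 15.8% higher and 14% lower among all tested genes. The call of Ptch1 was lost, and its log2 fold change dropped to 0.06, when a trend with gene length and GC content was removed from each library (adjusted p = 0.605), as described further on. In bulk RNA, a change in the number of cells of a type and a change in RNA per cell cannot be told apart.

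**Figure D1:**
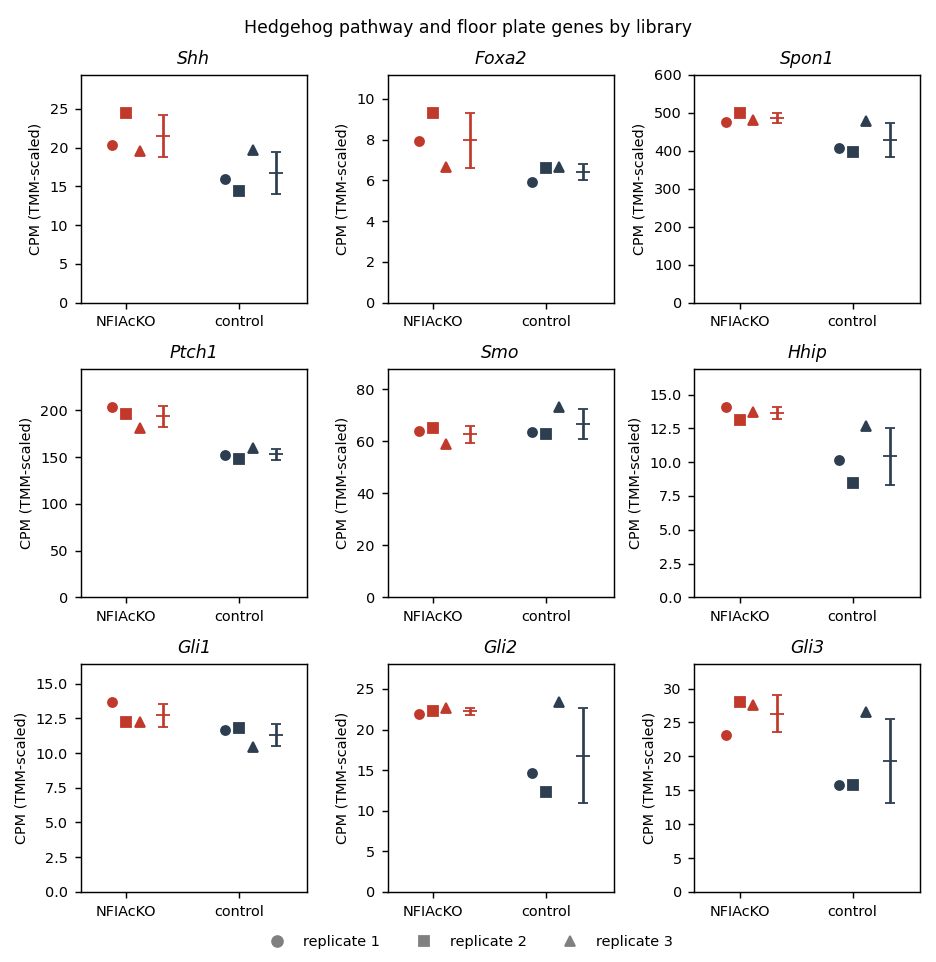
Level of each of the 9 genes in every library, in TMM-scaled CPM (y axis, from 0), with the libraries labelled NFIAcKO in red on the left and those labelled control in dark blue on the right; the symbol gives the replicate number and the bar the mean and SD (n = 3). The groups did not touch for Ptch1, at 181 to 204 CPM in the libraries labelled NFIAcKO and 148 to 159.7 CPM in those labelled control, whereas control replicate 3, the dark blue triangle, reached the level of the libraries labelled NFIAcKO for Gli2 and Gli3.

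Shh, the ligand, had 20.4, 24.5 and 19.6 CPM in NFIAcKO replicates 1, 2 and 3, against 15.9, 14.5 and 19.7 CPM in control replicates 1, 2 and 3. Control replicate 3 sat at the level of NFIAcKO replicate 3, so the groups overlapped. The means were 21.5 ± 2.66 CPM and 16.7 ± 2.70 CPM (SD, n = 3 each), and the log2 fold change of 0.36 (SE 0.13, 95% interval 0.09 to 0.64) did not pass the test (edgeR adjusted p = 0.0721). Shh lies on chromosome 5 of GRCm38 at 28456815 to 28467256 on the minus strand, with 2847 bp of annotated exons. Of these, 446 bp are shared with 9530036O11Rik and 361 bp with Gm26894, and its count is uncertain to that extent, since no source used here says how strand was treated.

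Foxa2, the forkhead factor that specifies floor plate, had 7.91, 9.33 and 6.649 CPM in NFIAcKO replicates 1, 2 and 3, against 5.94, 6.59 and 6.648 CPM in control replicates 1, 2 and 3. The groups did not overlap, but only by the last decimal between the replicates numbered 3, and on library totals without TMM scaling they overlapped. Its log2 fold change was 0.32 (SE 0.15, 95% interval 0.005 to 0.63, edgeR adjusted p = 0.161). Foxa2 is on the minus strand of chromosome 2, at 148042877 to 148046969, and has 2370 bp of exons. Its level is the most thinly measured of the 9, at 261 to 432 counts per library.

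Spon1 encodes F-spondin, an extracellular matrix protein secreted by the floor plate that guides axons. It had 476, 501 and 480 CPM in NFIAcKO replicates 1, 2 and 3, against 408, 396 and 479.7 CPM in control replicates 1, 2 and 3. Control replicates 1 and 2 lay below every other library and control replicate 3 lay among those labelled NFIAcKO. The log2 fold change was 0.18 (SE 0.09, 95% interval -0.01 to 0.37, edgeR adjusted p = 0.187). Spon1 is on the plus strand of chromosome 7, at 113765998 to 114043370, and has 10382 bp of exons.

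Ptch1, the receptor that is also a target of the pathway, had 204, 196 and 181 CPM in NFIAcKO replicates 1, 2 and 3, against 152, 148 and 159.7 CPM in control replicates 1, 2 and 3. Every library labelled NFIAcKO lay above every library labelled control, and the means of 194 ± 11.3 CPM and 153 ± 6.10 CPM (SD, n = 3 each) were further apart than the spread of either group. Such a separation with the libraries labelled NFIAcKO above was seen for 17.3% of all tested genes, and for 33.4% in either direction. Among the 9 genes it held for Foxa2, Ptch1, Hhip and Gli1. Ptch1 is on the minus strand of chromosome 13, at 63508328 to 63573598, and has 14185 bp of exons, the longest of the 9. The call was lost without NFIAcKO replicate 1 (edgeR adjusted p = 0.0975), without NFIAcKO replicate 2 (0.0551) and without control replicate 1 (0.0784), while the log2 fold change stayed between 0.30 and 0.37 in all 6 fits that left out a library.

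Smo, the transmembrane transducer that Ptch1 restrains, had 63.9, 65.1 and 58.7 CPM in NFIAcKO replicates 1, 2 and 3, against 63.6, 62.8 and 73.0 CPM in control replicates 1, 2 and 3. The groups overlapped, with control replicate 3 highest and NFIAcKO replicate 3 lowest. The log2 fold change was -0.09 (SE 0.08, 95% interval -0.27 to 0.09, edgeR adjusted p = 0.54), an interval that holds a fall as well as a small rise. Smo is on the plus strand of chromosome 6, at 29735503 to 29761365, and has 5621 bp of exons.

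Hhip binds hedgehog ligand at the cell surface and is, like Ptch1, both an antagonist and a target. It had 14.1, 13.2 and 13.7 CPM in NFIAcKO replicates 1, 2 and 3, against 10.2, 8.43 and 12.7 CPM in control replicates 1, 2 and 3. The libraries labelled NFIAcKO lay close together, at a mean of 13.6 ± 0.462 CPM, and all above the scattered controls, at 10.4 ± 2.13 CPM (SD, n = 3 each). The log2 fold change of 0.39 (SE 0.14, 95% interval 0.09 to 0.68) did not pass the test (edgeR adjusted p = 0.0739), though it did with a number shared by library names, described further on, as a block (0.0393). Hhip is on the minus strand of chromosome 8, at 79965851 to 80058006, and has 9076 bp of exons, of which Gm27820 shares 175 bp.

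Gli1, an activator that is induced by the signal, had 13.7, 12.2 and 12.2 CPM in NFIAcKO replicates 1, 2 and 3, against 11.7, 11.8 and 10.4 CPM in control replicates 1, 2 and 3. The groups did not overlap, yet the gap between the nearest libraries was small. Its log2 fold change of 0.17 (SE 0.11, 95% interval -0.07 to 0.41, edgeR adjusted p = 0.346) was the smallest of the 3 Gli genes, and it passed the test in none of the 18 alternative fits. Gli1 is on the minus strand of chromosome 10, at 127329882 to 127341974, and has 4995 bp of exons, of which Arhgap9 shares 62 bp and Gm47200 shares 265 bp. It was also the one gene of the 9 for which control replicate 3 was not above both other controls.

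Gli2, the main activator of the pathway in the ventral cord, had 21.9, 22.2 and 22.7 CPM in NFIAcKO replicates 1, 2 and 3, against 14.7, 12.3 and 23.4 CPM in control replicates 1, 2 and 3. Control replicate 3 lay above every library labelled NFIAcKO, while the other 2 controls lay far below. The log2 fold change was 0.41 (SE 0.20, 95% interval -0.03 to 0.85, edgeR adjusted p = 0.2) with all 6 libraries and 0.72 (adjusted p = 8.8e-05) without control replicate 3. With the number in the names as a block it was called (0.0441). Gli2 is on the minus strand of chromosome 1, at 118834132 to 119053619, and has 6869 bp of exons.

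Gli3, whose processed form is the main repressor of the pathway, had 23.2, 28.1 and 27.6 CPM in NFIAcKO replicates 1, 2 and 3, against 15.8, 15.8 and 26.5 CPM in control replicates 1, 2 and 3. The pattern was that of Gli2: control replicate 3 fell among the libraries labelled NFIAcKO and the other 2 controls lay well below them. The log2 fold change was 0.44 (SE 0.19, 95% interval 0.03 to 0.86, edgeR adjusted p = 0.142) with all 6 libraries and 0.73 (adjusted p = 6.2e-05) without control replicate 3. It was called with the number in the names as a block (0.021). Gli3 is on the plus strand of chromosome 13, at 15463235 to 15730026, and has 9589 bp of exons, of which Gm6556 shares 188 bp.

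Per length, the 9 genes fell into 5 levels. Spon1 was highest at 44.0 ± 4.18 CPM per kb of exon (SD over all 6 libraries), followed by Ptch1 at 12.2 ± 1.67 and Smo at 11.5 ± 0.838 CPM per kb, which did not differ beyond their spread and changed places between libraries. Shh came next at 6.71 ± 1.25 CPM per kb and lay apart from its neighbours in that order. Foxa2, Gli2, Gli1 and Gli3, at 3.03 ± 0.520, 2.84 ± 0.696, 2.40 ± 0.213 and 2.38 ± 0.596 CPM per kb, overlapped with one another. Hhip was lowest at 1.33 ± 0.246 CPM per kb, below Gli3 in all 6 libraries. Ptch1 exceeded Smo in the 3 libraries labelled NFIAcKO, at 14.35, 13.8 and 12.8 against 11.4, 11.6 and 10.45 CPM per kb, and not in the 3 labelled control, at 10.7, 10.4 and 11.25 against 11.3, 11.2 and 12.99 CPM per kb.

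Ratios of 2 counts within a library do not depend on how libraries are scaled to each other, and 5 were compared. The ratio of Ptch1 to Smo, a target and receptor over a transducer that is not a target, was 3.18, 3.01 and 3.09 in NFIAcKO replicates 1, 2 and 3, against 2.39, 2.35 and 2.19 in control replicates 1, 2 and 3. The groups did not overlap, and control replicate 3 was the lowest library. Their log2 means differed by 0.42 (exact two-sided permutation p = 0.1, the smallest that 3 against 3 libraries allow, and 0.5 when adjusted over the 5 ratios). The ratio of Gli1 to Gli3, an activator over a repressor, was 0.591, 0.436 and 0.442 in NFIAcKO replicates 1, 2 and 3, against 0.738, 0.749 and 0.393 in control replicates 1, 2 and 3. It overlapped, because control replicate 3 was the lowest library (exact permutation p = 0.4). The ratios of Gli2 to Gli3 (0.852 ± 0.0797 against 0.864 ± 0.0752), Shh to Foxa2 (2.72 ± 0.197 against 2.61 ± 0.389) and Hhip to Ptch1 (0.0706 ± 0.00443 against 0.0678 ± 0.0111, mean ± SD, n = 3, NFIAcKO against control in each) also overlapped, with exact permutation p of 1, 0.9 and 0.7.

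**Figure D2:**
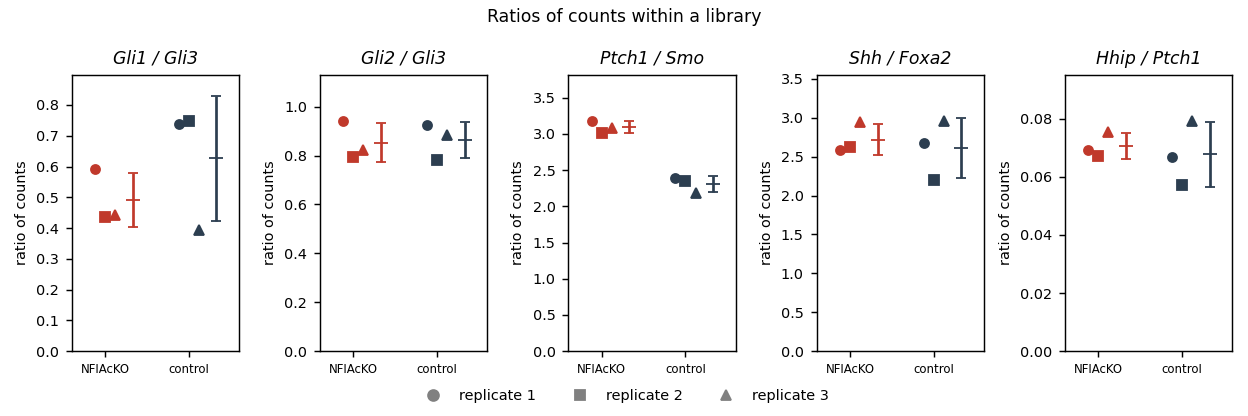
Ratio of the counts of 2 genes within each library (y axis, from 0, no unit), with the libraries labelled NFIAcKO in red on the left and those labelled control in dark blue on the right; bars give the mean and SD (n = 3). Only the ratio of Ptch1 to Smo among the 5 separates the groups, at 3.01 to 3.18 in the libraries labelled NFIAcKO and 2.19 to 2.39 in those labelled control.

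Control replicate 3 stood above both other controls for 8 of the 9 genes, where 37.9% of all tested genes did the same, and lay within the range of the libraries labelled NFIAcKO for 3 of 9 (Shh, Spon1 and Gli3), against 40.9% of all tested genes. Without it, 14.8% of all tested genes were called higher, and 6 of the 9 genes rose: Shh (log2 fold change 0.50, edgeR adjusted p = 0.0028), Spon1 (0.27, 0.0107), Ptch1 (0.37, 0.0014), Hhip (0.55, 0.0024), Gli2 and Gli3. Without either of the other 2 controls, or any one library labelled NFIAcKO, at most 1 did. Over the 18 alternative fits, the adjusted p ran from 0.000241 to 0.271 for Shh, 0.0213 to 0.493 for Foxa2, 0.0107 to 0.846 for Spon1, 0.00037 to 0.605 for Ptch1, 0.0464 to 0.899 for Smo, 0.00161 to 0.306 for Hhip, 7.75e-06 to 0.523 for Gli2 and 5.18e-06 to 0.516 for Gli3.

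**Figure D3:**
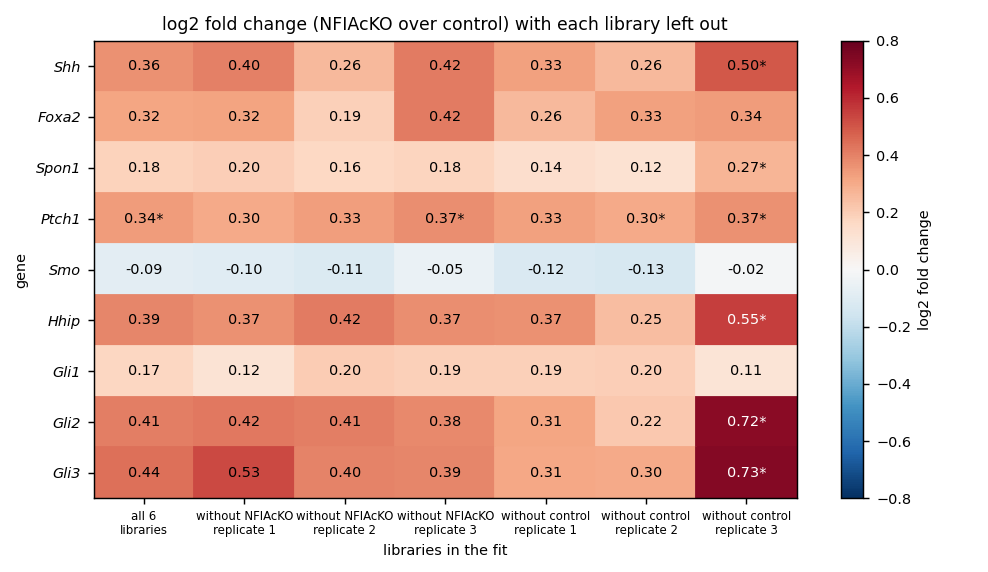
log2 fold change (NFIAcKO over control) of each of the 9 genes (rows) in the fit of all 6 libraries and in the 6 fits that leave out one library (columns); red is higher and blue lower in the libraries labelled NFIAcKO, and an asterisk marks an adjusted p under 0.05. Leaving out control replicate 3 raised Gli2 and Gli3 to 0.72 and 0.73 and gave 6 asterisks, while Smo stayed below 0 in all 7 fits.

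NFIAcKO replicate 3 and control replicate 3 also share a number in their names that the other 4 libraries do not have, and the labels do not say what it stands for. Within the 4 libraries that share the more frequent number, in a comparison added after the data were seen, 7 of the 9 genes rose (all but Smo and Gli1), beside 16.1% higher and 13.1% lower among all tested genes. The differences of mean log2 CPM there were 0.56 for Shh, 0.45 for Foxa2, 0.28 for Spon1, 0.42 for Ptch1, 0.03 for Smo, 0.55 for Hhip, 0.14 for Gli1, 0.71 for Gli2 and 0.69 for Gli3. Between the remaining pair, 1 library against 1 with no replicate check, they were -0.01 for Shh, 0.0002 for Foxa2, 0.0008 for Spon1, 0.18 for Ptch1, -0.31 for Smo, 0.11 for Hhip, 0.23 for Gli1, -0.05 for Gli2 and 0.06 for Gli3. With the number as a block in the fit of all 6 libraries, Ptch1, Hhip, Gli2 and Gli3 were called higher (edgeR adjusted p = 0.00893, 0.0393, 0.0441 and 0.021), beside 9.6% higher and 7.97% lower among all tested genes. Whether the differences themselves differ between the sets was not tested.

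Levels were also compared after a smooth trend of counts with exonic length and GC content was taken out of each library. The 9 genes have a median exonic length of 6869 bp, against 3976 bp for all tested genes. With the trend removed, 7.69% of all tested genes were called (3.82% higher and 3.87% lower), and among the 9 the calls moved to other genes. Ptch1, the longest, was no longer called and its log2 fold change dropped to 0.06 (95% interval -0.08 to 0.21, edgeR adjusted p = 0.605). Shh, at 2847 bp, was called higher at 0.45 (95% interval 0.18 to 0.72, adjusted p = 0.0454), with 21.0, 24.7 and 20.7 CPM in NFIAcKO replicates 1, 2 and 3, against 15.5, 13.8 and 19.4 CPM in control replicates 1, 2 and 3. On that scale the groups of Shh no longer overlapped. Smo was called lower at -0.22 (95% interval -0.36 to -0.09, adjusted p = 0.0464), with 59.05, 61.3 and 58.5 CPM in NFIAcKO replicates 1, 2 and 3, against 66.6, 70.7 and 71.4 CPM in control replicates 1, 2 and 3. Foxa2 came to 0.39 and Hhip to 0.32 (adjusted p = 0.0867 and 0.164), Spon1 to -0.03 and Gli1 to 0.04, and Gli2 and Gli3 to 0.25 and 0.26, none of them called. The ratio of Ptch1 to Smo remained higher in every library labelled NFIAcKO, at a log2 difference of 0.28 (exact permutation p = 0.1).

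**Figure D4:**
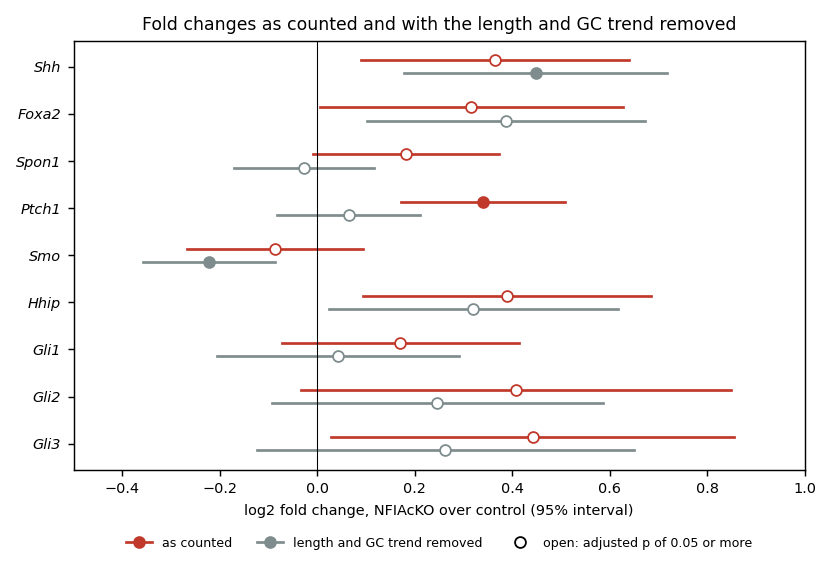
log2 fold change (NFIAcKO over control, x axis) of each of the 9 genes with its 95% interval, as counted (red, upper) and with the length and GC trend removed (grey, lower); filled points have an adjusted p under 0.05. As counted only Ptch1 is filled, at 0.34; with the trend removed only Shh, at 0.45, and Smo, at -0.22, are filled.

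Promoters were searched for the letters that Gli factors and NFI proteins are known to bind. The windows printed are that of Ptch1, the gene called, and those of Foxa2 and Smo that held a match. RefSeq start sites on GRCm38.p6 gave windows of 250 bases before a start for 6 of the 9 genes, 8 windows in all (Shh, Spon1 and Gli1 had none). Both strands were searched for the GLI site GACCACCCA, exact or with 1 mismatch, for the single NFI site TTGGC and for the paired NFI site, in which TTGGC is followed after 5 bases by GCCAA and which therefore contains the single one. Of 32851 windows of the same length, 0.225% held the exact GLI site, 5.79% a GLI site with up to 1 mismatch, 41.5% a single NFI site and 0.0365% a paired NFI site. None of the 8 windows held an exact GLI site or a paired NFI site. Capitals mark the matches, 5′ to 3′ on the gene's own strand.
Foxa2, start 1, chr2:148046970-148047219, minus strand: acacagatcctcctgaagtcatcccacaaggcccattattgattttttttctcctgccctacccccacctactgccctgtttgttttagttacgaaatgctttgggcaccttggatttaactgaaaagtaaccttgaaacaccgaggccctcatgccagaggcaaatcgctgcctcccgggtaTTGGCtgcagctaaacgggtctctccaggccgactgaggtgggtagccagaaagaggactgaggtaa
Foxa2, start 3, chr2:148045465-148045714, minus strand: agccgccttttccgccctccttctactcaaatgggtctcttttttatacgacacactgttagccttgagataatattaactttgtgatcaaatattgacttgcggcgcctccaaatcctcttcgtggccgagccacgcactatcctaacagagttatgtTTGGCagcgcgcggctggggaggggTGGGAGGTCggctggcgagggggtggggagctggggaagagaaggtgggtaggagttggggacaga
Ptch1, chr13:63565736-63565985, minus strand: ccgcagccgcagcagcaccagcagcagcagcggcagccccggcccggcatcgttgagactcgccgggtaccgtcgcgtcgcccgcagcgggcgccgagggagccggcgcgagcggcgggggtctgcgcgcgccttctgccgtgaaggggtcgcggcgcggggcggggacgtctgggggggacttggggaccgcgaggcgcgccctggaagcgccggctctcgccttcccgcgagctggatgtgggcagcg
Smo, chr6:29735247-29735496, plus strand: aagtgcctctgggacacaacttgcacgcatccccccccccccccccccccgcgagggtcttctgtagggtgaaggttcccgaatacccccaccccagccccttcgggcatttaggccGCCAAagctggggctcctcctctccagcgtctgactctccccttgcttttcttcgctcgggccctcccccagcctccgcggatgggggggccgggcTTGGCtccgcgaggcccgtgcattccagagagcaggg
Foxa2 start 3 held the one GLI site with 1 mismatch among the 8 windows, 58 bases before the start, and a single NFI site 87 bases before it, and Foxa2 start 1 held a single NFI site 63 bases before the start. Smo held single NFI sites 33 and 129 bases before its start. The Ptch1 window, of 78.4% GC, held none of the motifs, and neither did those of Gli2, Gli3 and Hhip or the other Foxa2 window. A match describes letters and not binding, and other windows were not analysed here.

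The 9 genes sit in a pathway of which 49 further genes were listed in 6 groups, 47 of them tested (Ihh, another hedgehog ligand, and the floor plate factor Nkx2-9 were too low). Of the 47, 13 rose and 0 fell in the libraries labelled NFIAcKO, beside 7.86% higher and 6.08% lower among all tested genes, and their median log2 fold change was 0.18, with 36 above 0. At an unadjusted p under 0.05 edgeR gave 19 higher and 0 lower, beside 15.8% and 14% of all tested genes. DESeq2 called 17 higher and 0 lower, beside 13.6% and 10.8% of all genes given an adjusted p, and limma-voom 12 and 0, beside 7.37% and 4.93%. The rises were spread over ligand release, receptors, Gli regulators, cilium genes, targets and floor plate. The lists were chosen with earlier results of these data known, so these counts describe them and are no independent support. The number moved with single libraries: 2, 6 and 3 of the 47 rose without NFIAcKO replicate 1, 2 and 3, and 1, 8 and 20 without control replicate 1, 2 and 3. The share of all tested genes called higher moved with it, at 1.72, 3.29 and 1.79% without NFIAcKO replicate 1, 2 and 3 and at 1.55, 3.88 and 14.8% without control replicate 1, 2 and 3. In the 6 fits that left out a library, Scube1, Scube3, Gsk3b, Kif3a and Slit2 were called in 4, Gpr161 and Nkx2-2 in 3, Dync2h1 in 2, and Disp1, Lrp2, Nkx6-1, Ntn1 and Sulf1 in 1, the fit without control replicate 3. The 47 genes have a median exonic length of 5224 bp, against 3976 bp for all tested genes. With the length and GC trend removed 8 rose and 0 fell, beside 3.82% higher and 3.87% lower among all tested genes. The 8 were Scube3, Gpr161, Prkaca, Gsk3b, Cul3, Kif3a, Nkx2-2 and Nkx6-1.

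**Figure D5:**
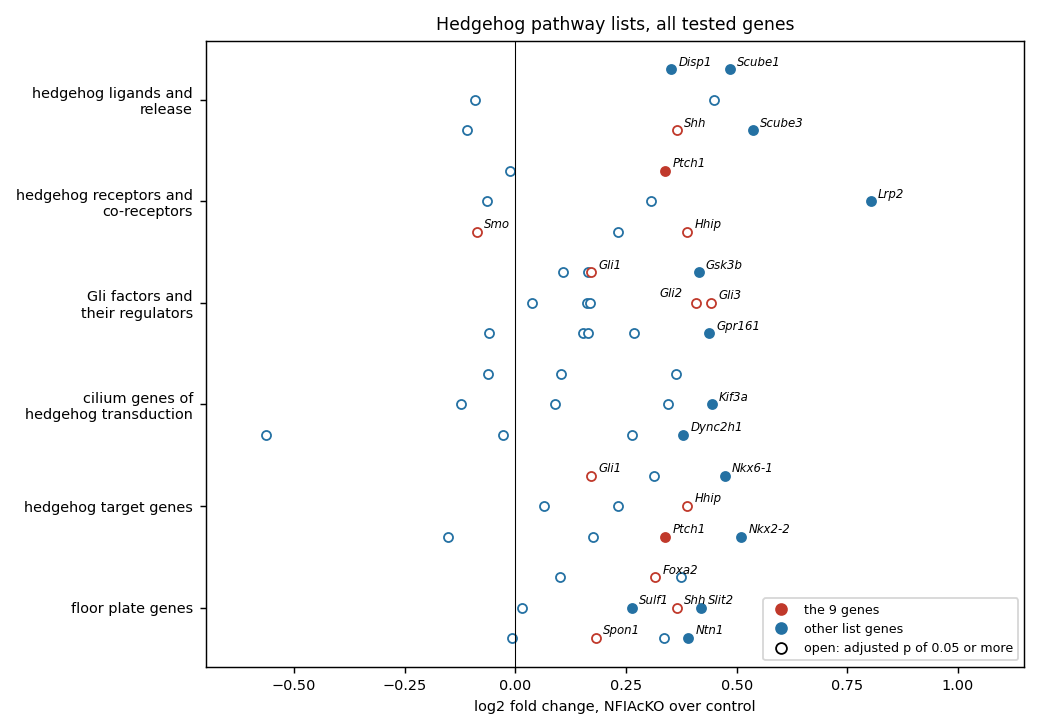
log2 fold change (NFIAcKO over control, x axis) of every tested gene of the 6 pathway lists (rows), with the 9 genes in red, the others in blue, filled where the adjusted p was under 0.05, and vertical steps within a row only to part the points. All filled points lie above 0, from Sulf1 at 0.26 to Lrp2 at 0.80.

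Among genes of ligand release, 3 of 7 tested rose, beside 7.86% of all tested genes. Shh was one of the 4 that did not pass the test. Disp1, which frees the lipid-modified ligand from the cell that makes it, had a log2 fold change of 0.35 (SE 0.10, edgeR adjusted p = 0.0347). Scube1 and Scube3, secreted relatives of a protein that helps to release the ligand, came to 0.49 (SE 0.10, adjusted p = 0.0088) and 0.54 (SE 0.11, adjusted p = 0.0096). Scube3 had 80.8, 79.2 and 68.7 CPM in NFIAcKO replicates 1, 2 and 3, against 51.2, 44.6 and 62.0 CPM in control replicates 1, 2 and 3. For Scube1, Scube3 and Disp1 the groups did not overlap. With the length and GC trend removed, Scube1 was at 0.22 and Disp1 at 0.26, neither called (adjusted p = 0.0559 and 0.088), and Scube3 at 0.31 (0.0283).

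Among receptors and co-receptors, 2 of 8 rose, Ptch1 and Lrp2, beside 7.86% of all tested genes. Lrp2, an endocytic receptor that binds the ligand, had the largest estimate of the genes called in the 6 lists, at 9.38, 9.57 and 11.7 CPM in NFIAcKO replicates 1, 2 and 3, against 3.85, 5.83 and 7.87 CPM in control replicates 1, 2 and 3. The log2 fold change was 0.80 (SE 0.21, edgeR adjusted p = 0.0258), and 1.07 without control replicate 3, against 0.57 to 0.86 in the 5 other fits that left out a library. With the length and GC trend removed it was 0.49 and not called (adjusted p = 0.14). The co-receptors Cdon, Boc and Gas1 came to 0.31, -0.06 and -0.01 (SE 0.11, 0.12 and 0.17, edgeR adjusted p = 0.084, 0.762 and 0.972), none called.

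Of 14 Gli factors and regulators, 2 rose, beside 7.86% of all tested genes. Gpr161, a receptor of the cilium that holds the pathway off, had a log2 fold change of 0.44 (SE 0.10, edgeR adjusted p = 0.0118) and Gsk3b, a kinase that phosphorylates Gli proteins for processing and acts in many pathways, 0.41 (SE 0.09, adjusted p = 0.0093). Gsk3b had 518, 537 and 514 CPM in NFIAcKO replicates 1, 2 and 3, against 397, 357 and 423 CPM in control replicates 1, 2 and 3, with no overlap, and its log2 fold change was 0.25 with the length and GC trend removed (adjusted p = 0.04). Sufu, which sequesters Gli proteins, had 53.8, 58.0 and 53.9 CPM in NFIAcKO replicates 1, 2 and 3, against 43.5, 42.0 and 52.2 CPM in control replicates 1, 2 and 3, and was not called (0.27, SE 0.09, adjusted p = 0.0674). Prkaca, the catalytic subunit of protein kinase A, and Cul3, a ubiquitin ligase scaffold, came to 0.16 each as counted (adjusted p = 0.209 and 0.177) and to 0.25 and 0.27 with the trend removed (0.0432 and 0.047, in ranges of 0.0305 to 0.491 and 0.047 to 0.411 over 18 alternatives).

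The cilium is where vertebrate cells transduce the signal. Of 11 cilium genes 2 rose: Kif3a, a subunit of the motor that builds the cilium (log2 fold change 0.44, SE 0.09, edgeR adjusted p = 0.0096), and Dync2h1, the heavy chain of the motor that returns cargo from its tip (0.38, SE 0.11, adjusted p = 0.0332). Kif3a had 199.5, 214 and 219.7 CPM in NFIAcKO replicates 1, 2 and 3, against 159, 135 and 172 CPM in control replicates 1, 2 and 3, with no overlap. With the length and GC trend removed, Dync2h1 was at 0.14 and not called (adjusted p = 0.384), as it was not on library totals (0.0703) or with upper quartile scaling (0.06). The median log2 fold change of the 11 cilium genes was 0.10 as counted. Their 2 calls in 11 are to be read beside the 7.86% called higher among all tested genes.

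Of 10 target genes 3 rose, Ptch1, Nkx2-2 and Nkx6-1, beside 7.86% of all tested genes. Nkx2-2, which marks the progenitors nearest the floor plate, had 21.0, 21.1 and 20.2 CPM in NFIAcKO replicates 1, 2 and 3, against 14.8, 12.8 and 16.2 CPM in control replicates 1, 2 and 3. The groups were apart, and the log2 fold change of 0.51 (SE 0.11, edgeR adjusted p = 0.011) was 0.56 after removal of the length and GC trend (adjusted p = 0.0153), so that unlike Ptch1 it was called either way. Its exons share 278 bp with the antisense gene Nkx2-2os. Nkx6-1, a factor of ventral progenitors and motor neurons, had 74.5, 69.2 and 57.5 CPM in NFIAcKO replicates 1, 2 and 3, against 44.6, 41.1 and 59.4 CPM in control replicates 1, 2 and 3, so that the replicates numbered 3 crossed. It rose by 0.47 (SE 0.13, edgeR adjusted p = 0.0354) as counted and 0.46 with the trend removed (0.0327). The call was lost with the number in the names as a block (0.0523), with the replicate number as a block (0.0657) and on library totals (0.0514).

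Of 11 tested floor plate genes 3 rose: Ntn1, which encodes the axon attractant netrin-1 (log2 fold change 0.39, SE 0.10, edgeR adjusted p = 0.0238), Sulf1, an extracellular sulfatase that trims heparan sulfate (0.26, SE 0.08, adjusted p = 0.0496), and Slit2, which encodes an axon repellent (0.42, SE 0.09, adjusted p = 0.011). Ntn1 had 483, 503 and 457 CPM in NFIAcKO replicates 1, 2 and 3, against 347, 323 and 432 CPM in control replicates 1, 2 and 3. None of these 3 is restricted to floor plate in the cord, and none was called with the length and GC trend removed, at 0.23 for Ntn1, 0.05 for Sulf1 and 0.05 for Slit2 (adjusted p = 0.0598, 0.65 and 0.731). The more restricted factor Foxa1 came to 0.37 (SE 0.22, edgeR adjusted p = 0.28) and was not called. The 3 calls in 11 stand beside 7.86% called higher among all tested genes.

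Markers of other cells moved with some of these genes, and their part in the results was not tested. The 10 neural progenitor markers summed to 1813, 2138 and 1783 CPM in NFIAcKO replicates 1, 2 and 3, against 1528, 1475 and 1929 CPM in control replicates 1, 2 and 3, so that control replicate 3 was again high. Of these markers 2 rose (Nes and Notch1) and 1 fell (Hes5). Marker counts here and below are to be read beside 7.86% higher and 6.08% lower among all tested genes. The 8 neuron markers summed to 9474 to 9937 CPM in the libraries labelled NFIAcKO and 8415 to 8733 CPM in those labelled control, with 3 of 8 higher. Cartilage precursors respond to hedgehog ligand too. The 8 cartilage and sclerotome markers summed to 230 to 258 CPM in the libraries labelled NFIAcKO and 161 to 229.5 CPM in those labelled control, nearly all of it Col2a1 and Sox9, of which Sox9 is also expressed by cord progenitors, with Pax9, Nkx3-2, Acan and Matn1 under 1 CPM on average. The notochord, another source of Shh and Foxa2, was at or near 0 in its defining markers: Noto had no count in any library and 6 of 7 markers averaged under 1 CPM, Chrd making up most of a sum of 8.36 to 10.8 CPM in the libraries labelled NFIAcKO and 9.52 to 13.1 CPM in those labelled control. Of 7 markers of gut and lung endoderm, which also makes Shh and Foxa2, 4 averaged under 1 CPM (Nkx2-1, Sftpc, Cdx1 and Vil1). The sums were 9.57 to 11.3 CPM in the libraries labelled NFIAcKO and 8.24 to 11.1 CPM in those labelled control. Sox17 made up most of them, at 6.80 to 7.24 CPM and 6.55 to 6.72 CPM. Among the other cells a dissected cord can hold, endothelial markers summed to 310.0 to 332 CPM in the libraries labelled NFIAcKO and 245 to 291 CPM in those labelled control (3 of 5 higher, 1 lower), and microglia markers to 63.1 to 71.1 CPM in the libraries labelled NFIAcKO and 81.0 to 87.1 CPM in those labelled control (2 of 6 lower). Markers of dorsal root ganglion neurons summed to 164 to 179.6 CPM in the libraries labelled NFIAcKO and 189 to 227 CPM in those labelled control. Sncg made up most of these sums, at 151.5 to 167 CPM and 174.8 to 206.3 CPM. None of the 7 markers was called. Meninges and fibroblast markers summed to 2099, 1521 and 1567 CPM in NFIAcKO replicates 1, 2 and 3, against 1415, 1312 and 1692 CPM in control replicates 1, 2 and 3. Erythroid markers summed to 1363 to 1700.0 CPM in the libraries labelled NFIAcKO and 1262 to 1402 CPM in those labelled control, with Hba-x called higher.

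Likeness of pattern was measured as the root mean square difference between log2 CPM centred over the 6 libraries, so 0 is an identical pattern. Among the 36 pairs of the 9 genes, Gli2 and Gli3 were closest at 0.11, with Spon1 and Ptch1 also at 0.11, and Gli1 and Gli3 were farthest apart at 0.37, together with Gli1 and Gli2. Gli1 thus lay farthest, among these pairs, from the other members of its own family, and it is also the gene for which control replicate 3 was the lowest library. Among 14677 tested genes, leaving out predicted ones, the nearest to Shh were Sp2 (0.02), Sox9, Ago1, Ncapd2 and Phf21b (all 0.04). Among the 5 nearest to Foxa2 were Tcf7l2 (0.06), Kdm5c, Barhl2 and Tll2 (0.07 each). For Gli1 they were Lhx9, Gpr153, Otud1, Chic1 and Xkr8 (0.03 to 0.04), and for Ptch1 Cacna2d3, Dennd4b, Mink1, Med13l and St8sia1 (0.01 to 0.03). The 6 libraries share their depth and scaling across genes, and these distances are a description with no test.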

How the data were processed

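The deposited files hold whole-number counts per gene symbol, not normalized, 1 per library. The labels' protocols name RNeasy columns and an Illumina stranded mRNA kit. STAR 2.6.1a, HTSeq, DESeq2 and mm10 are named, without roles, in the submitters' processing notes. No source used here gives the annotation or the strand setting. Summary lines (16.9 to 19.4% of a file) were left out. Every pair of libraries within a group differed by more than sampling noise, and all 6 were used as separate samples.

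Counts were tested in edgeR 4.0.16 (R 4.3.3) with TMM scaling, filterByExpr and its quasi-likelihood F test in robust form. Adjusted p-values are Benjamini-Hochberg over 17711 genes. The SE is the one that F implies for a log2 fold change, and the biological coefficient of variation was 11.5%. Lengths, GC content, coordinates and overlaps are from GENCODE M21 (GRCm38), and 98.8% of tested genes had them. The length and GC trend was fitted by natural splines of 5 df on genes with mean log2 CPM above 1, and its values served as offsets. Alternatives were other scalings and filters, DESeq2 1.42.0, limma 3.58.1 voom, the replicate number, the number in the names, Xist as a covariate, the trend and leaving out each library.

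The 9 genes and all lists were chosen with earlier results of these data known. Named in addition are Nfia, every called gene of the wider lists, a set of genes fixed by name, and for 4 of the 9 the 5 nearest in pattern. Results of some genes that this rule names do not appear. Prkaca and Cul3 were named after their values were seen.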

Additional observations from a re-analysis of the deposited data

How the results depend on the processing

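Under 18 alternatives, the log2 fold changes of Shh, Foxa2, Ptch1, Hhip, Gli1, Gli2 and Gli3 stayed above 0, and Ptch1 was called in 14. Of the 9 genes, 5 were called higher with no filter on low counts, beside 5.64% of all genes. DESeq2 called 4 higher, beside 13.6% of all genes given an adjusted p. With the number in the names as a block 4 were called higher (Ptch1, Hhip, Gli2 and Gli3), beside 9.6% of all tested genes. In the 4 libraries that share the more frequent number (added after the data were seen) 7 were higher, beside 16.1%. With the trend removed 1 was higher and 1 lower, beside 3.82% and 3.87%. Counts over all genes were 901 higher and 1655 lower on library totals, 676 and 686 with the trend removed and 2888 and 2356 in the 4 libraries. Of the wider genes 8 rose with the trend removed and 21 in the 4 libraries. Leaving out a library gave 282 to 2703 genes higher and 139 to 2466 lower, 0 to 6 of the 9 and 1 to 20 wider genes higher.

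Signs turned for Spon1 with the trend removed (-0.0269), Smo in the 4 libraries (0.0328), Boc on leaving out a library (-0.174 to 0.0462) and in the 4 libraries (0.0697), and Gas1 with the number as a block (0.00821), with the trend removed (0.00019), on leaving out a library (-0.179 to 0.182) and in the 4 libraries (0.236). None of these was called. The log2 ratio of Gli2 to Gli3 ran from -0.0941 to 0.0334 on leaving out a library and was 0.024 in the 4 libraries, that of Shh to Foxa2 ran from -0.0558 to 0.161 and that of Hhip to Ptch1 from -0.0481 to 0.189. The cause was not tested.

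With the replicate number as a block (replicate block), 2 of the 9 genes were called higher, Ptch1 and Gli3 (edgeR adjusted p = 0.0393). Among all tested genes, 7.64% were called higher and 6.32% lower in that fit. Of the wider genes 11 were called higher, and the calls of Nkx6-1 and Sulf1 were lost (0.0657 and 0.0584). Deviations from the group means correlated at 0.0875, 0.12 and 0.119 between libraries of the same number. Among the controls, each library labelled NFIAcKO correlated best with the one of its own number, a hint from the data and not the design. The replicates numbered 2 also differed from the rest in sex markers. Xist was at 201 CPM in NFIAcKO replicate 2 and 335 CPM in control replicate 2, with Ddx3y at 0 in both. Elsewhere Xist was at most 0.0635 CPM and Ddx3y 44.5 to 53.6 CPM. The replicates numbered 3 share the less frequent number in the names. What the correlations reflect was not tested. Foxa2 has the fewest counts, and 3 libraries a group limit what can be called.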
